A study of Homo sapiens with 18 samples.

Results

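The genes described here are the D-type cyclins CCND1, CCND2 and CCND3, the kinases CDK4 and CDK6 that they bind, the CDK inhibitors CDKN2B, CDKN2C, CDKN1B and CDKN1C, and RB1, the main substrate of these kinases. They were chosen by symbol as 10 of the 63241 genes in the count table. All 10 were found, and 9 passed the filter on low counts in both fits. CCND2 did not, with 0 to 3 counts in each of the 18 libraries. The main differences with a drug were in CCND1 and CDKN2C, which fell with baicalein at 20 µM, and in CDKN2B, which rose with it. In that comparison 57.2% of all genes were called. Between PC-3 and LNCaP 7 of the 9 tested members were called, a share near the 74.9% of all genes called there.

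D-type cyclins are made when cells receive growth signals, and they activate CDK4 and CDK6. The active kinases phosphorylate the RB1 protein, which then releases E2F transcription factors that turn on genes for DNA replication. INK4 inhibitors (CDKN2B encodes p15, CDKN2C encodes p18) bind CDK4 and CDK6 and keep the cyclin off, whereas CIP/KIP inhibitors (CDKN1B encodes p27, CDKN1C encodes p57) bind whole cyclin and CDK complexes, above all those with CDK2. CDK4 and CDK6 are targets of drugs used against cancer.

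Poly(A) RNA was sequenced from 2 human prostate cancer cell lines labelled wild type, in 6 groups of 3 libraries. LNCaP, a line from a nodal metastasis that depends on androgen, was untreated or received genistein (10 or 20 µM) or baicalein (10 or 20 µM) for 24 h. PC-3 derives from a metastasis to bone, does not need androgen and was analysed untreated only. Control libraries are labelled untreated, whereas by the protocol the controls received DMSO. Both drugs are plant flavonoids with the same formula: genistein belongs to the isoflavones and baicalein to the flavones, so that the phenyl ring joins the core at a different place, and their hydroxyl groups are placed differently. All cells grew in the same serum-containing medium. Whether the replicates were separate cultures is not stated, so that the spread behind each p-value is that among libraries and may be technical.

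Total counts ran from 10013567 to 18445711 per library. Mitochondrially encoded genes took 12.5 ± 1.97% of the counts with baicalein 20 µM and 5.09 ± 0.382% in untreated LNCaP (SD, n = 3). In the other groups their mean share lay between 4.55 and 6.05%. In a fit without mitochondrially encoded genes, the log2 fold changes with baicalein 20 µM were -2.27 for CCND1, -2.08 for CDKN2C and 1.40 for CDKN2B, all 3 still called. That of CDKN1B was 0.72 and no longer called (adjusted p = 0.0633). In CPM, which are deposited counts scaled to library size, the summed level of 4 luminal prostate markers (KLK3, KLK2, FOLH1 and TMPRSS2) was 2570 to 2900 in untreated LNCaP, 492 to 611 with baicalein 20 µM and 65.9 to 73.2 in PC-3. All 4 were called lower with baicalein 20 µM and in PC-3, where 3 of the 4 had a mean of at least 1 CPM. Most of the PC-3 sum was TMPRSS2, at 62.61 to 70.37 CPM. KLK3 had 1.275 to 2.373 CPM there, FOLH1 0.678 to 1.855 CPM and KLK2 0.0796 to 0.1159 CPM. With genistein 20 µM KLK3 had 678 to 732 CPM, KLK2 25.8 to 28.5, TMPRSS2 129 to 150 and FOLH1 887 to 952. In untreated LNCaP these 4 had 1359 to 1628, 64.1 to 71.0, 300 to 335 and 849 to 909 CPM. The 4 epithelial markers summed to 694 to 753 CPM in untreated LNCaP, 867 to 911 with baicalein 20 µM and 447 to 514 in PC-3. Of these 4, 3 were called higher and CDH1 lower with baicalein 20 µM, and in PC-3 1 was called higher and 2 lower. CDH1 had 286 to 298 CPM in untreated LNCaP, 184 to 204 CPM with baicalein 20 µM and 2.60 to 10.4 CPM in PC-3. Of the 3 leukocyte markers, CD3E was at 0 in PC-3 and in every drug group, and the list's sum did not exceed 2.37 CPM in LNCaP. In PC-3 that sum was 31.8 to 39.4 CPM, of which CD68 alone had 31.65 to 39.01 CPM and PTPRC 0.1159 to 0.398 CPM. Of the 2 endothelial markers CDH5 was at 0 in every group. The other, PECAM1, had 0 to 0.0575 CPM in untreated LNCaP, 0.409 to 0.649 CPM with baicalein 20 µM and 3.26 to 6.10 CPM in PC-3, where it was called higher. The 3 fibroblast markers summed to 8.36 to 16.6 CPM over all libraries. The part of these markers in the results was not tested.

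The promoters of 3 of the 4 members called with baicalein 20 µM are shown, because CDKN2B and CDKN2C code for inhibitors of the same class and moved in opposite directions. Each runs 5′ to 3′ on the gene's strand, from 250 bases before to 50 bases after a RefSeq start site (GRCh38.p14). Capitals mark every GC box (GGGCGG or its complement CCGCCC), the word bound by SP and KLF factors, and every core TGACG (or its complement CGTCA) of the cyclic AMP response element.
CDKN2C, chr1:50968456-50968755, plus strand: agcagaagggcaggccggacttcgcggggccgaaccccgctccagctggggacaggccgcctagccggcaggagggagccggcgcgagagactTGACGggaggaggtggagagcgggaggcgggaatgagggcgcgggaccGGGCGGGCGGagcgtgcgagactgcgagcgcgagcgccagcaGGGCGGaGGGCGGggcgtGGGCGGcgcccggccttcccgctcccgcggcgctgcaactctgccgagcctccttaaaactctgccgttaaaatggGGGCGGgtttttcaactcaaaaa
CDKN2B, chr9:22009256-22009555, minus strand: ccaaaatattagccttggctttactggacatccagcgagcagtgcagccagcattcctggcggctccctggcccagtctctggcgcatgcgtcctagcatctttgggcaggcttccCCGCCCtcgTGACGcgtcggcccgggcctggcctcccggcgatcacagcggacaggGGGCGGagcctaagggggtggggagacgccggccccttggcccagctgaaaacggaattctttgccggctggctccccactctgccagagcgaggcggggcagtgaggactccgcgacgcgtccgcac
CDKN1B, chr12:12717118-12717417, plus strand: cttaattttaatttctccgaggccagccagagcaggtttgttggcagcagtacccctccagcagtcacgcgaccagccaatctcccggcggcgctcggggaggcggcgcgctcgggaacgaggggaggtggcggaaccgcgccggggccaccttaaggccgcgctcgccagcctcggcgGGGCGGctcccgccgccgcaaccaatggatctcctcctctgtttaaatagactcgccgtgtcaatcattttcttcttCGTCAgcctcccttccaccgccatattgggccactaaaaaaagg
The promoter table matched 7 of the 10 members, with 12 start sites in all, and CCND1, CCND2 and CDKN1C were not matched. The only start site for RB1, at 48476450, lies inside the gene, which starts at 48303744. The promoter at the start of RB1 was therefore not searched. For CDKN2C the promoter table holds 3 start sites, of which the one shown was chosen after the matches were seen, as the one with the most GC boxes. The window of CDKN2C shown held 6 GC boxes, of which the pair at positions -109 and -105 from the start site overlaps, and 1 TGACG. The CDKN2C windows at the start sites 50960745 and 50970245, not shown, held 0 and 1 GC boxes and 1 and 2 TGACG. The window of CDKN2B held 2 GC boxes and 1 TGACG, and that of CDKN1B held 1 of each. On both strands, 44.95% of the 35116 RefSeq promoters held a GC box and 24.55% held TGACG. None of the 12 windows of the members held one of the E2F words TTTCCCGC, TTTGGCGC, TTTCGCGC or TTTGCCGC, which 3.31% of all promoters hold. None held the AP-1 words TGACTCA or TGAGTCA (4.95% of all promoters) or the full element TGACGTCA (1.85%), which contains that core. The FOXO word GTAAACA (3.42%) was found in 1 window of CCND3.

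Levels are given as CPM with TMM factors, as mean ± SD over 3 libraries. Where levels of different genes are compared, CPM were divided by the length in kb of the gene's merged exons in GENCODE 29. In untreated LNCaP, CDK4 stood at 50.0 ± 5.83 CPM per kb, CCND1 at 45.6 ± 1.10 and CDKN1B at 38.2 ± 9.37, and the libraries of neighbours in this order overlapped. RB1 followed at 11.1 ± 1.05 CPM per kb, apart from the genes above and below it. CCND3 (5.17 ± 1.21) and CDKN2C (4.34 ± 0.420) overlapped each other. CDKN2B (1.76 ± 0.602), CDK6 (0.389 ± 0.130) and CDKN1C (0.170 ± 0.0901) each lay below the gene before them in all 3 libraries. CCND2 was last at 0.00506 ± 0.00441 CPM per kb.

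Genes were tested with edgeR's quasi-likelihood test, with Benjamini-Hochberg adjustment over all genes tested, and were called at an adjusted p under 0.05. At 10 µM no member was called, 0 of 9 with genistein and 0 of 9 with baicalein. None had an unadjusted p under 0.05. Some intervals were wide, such as -0.19 to 1.67 on the log2 scale for RB1 with baicalein, so changes are not excluded. Of all genes tested, 0.0353% were called higher and 0.0765% lower with genistein 10 µM, and 0.0883% higher and 0.312% lower with baicalein 10 µM. Genistein at 20 µM lowered 1 of the 9 members and raised none, against 8.31% of all genes called higher and 8.12% called lower. Baicalein at 20 µM raised 2 and lowered 2, and 29.4% of all genes were called higher and 27.8% lower. The median log2 fold change of the 9 members was -0.09 with baicalein 20 µM and 0.04 over all genes, and with genistein 20 µM it was -0.01 against 0.05. Of the genes called with genistein 20 µM, 50.6% were higher, and this share moved with the processing. It was 39.0% without mitochondrially encoded genes, 41.4% with relative log expression factors, 42.4% with DESeq2 and 42.1% without the filter on low counts. With only the compared groups it was 47.1%, with a replicate block 48.7% and with a GC and length correction 53%. The cause was not tested.

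**Figure D1:**
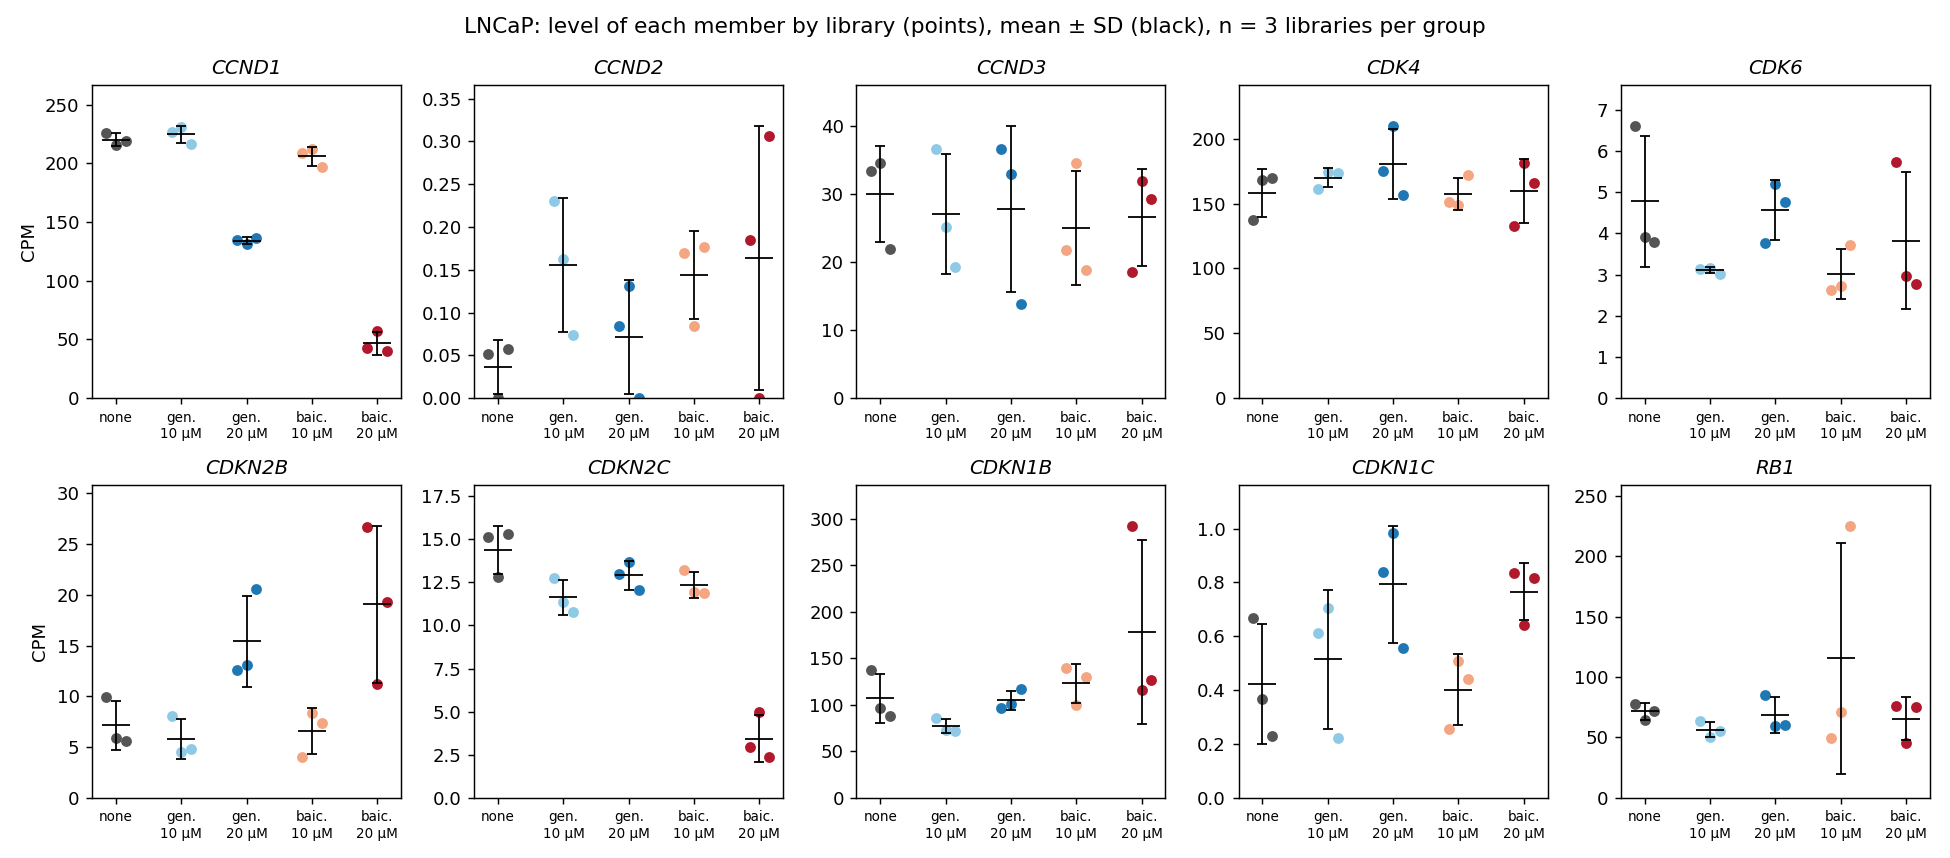
Level of each of the 10 genes in the 15 LNCaP libraries, in CPM on a linear axis from 0 (none, untreated; gen., genistein; baic., baicalein). Points are libraries, and black bars are the mean ± SD of 3 libraries. CCND1 and CDKN2C are lowest in all 3 libraries with baicalein 20 µM, CDKN2B is high with both drugs at 20 µM, and single libraries stand apart for CDKN1B (baicalein 20 µM) and RB1 (baicalein 10 µM).

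Among the D cyclins only CCND1 was called in a drug comparison. CCND1 (ENSG00000110092, chromosome 11, 69641156 to 69654474, plus strand, GRCh38) encodes cyclin D1, whose gene is a target of many growth signals. Its 3 untreated LNCaP libraries had 226, 216 and 219 CPM. At 10 µM the values were 227, 231 and 216 CPM for genistein and 209, 212 and 197 CPM for baicalein. Genistein at 20 µM gave 135, 131 and 137 CPM, below every untreated library. Baicalein at 20 µM gave 42.4, 57.4 and 39.7 CPM, below every library of every other group. At 10 µM CCND1 was not called (log2 fold change 0.06, 95% interval -0.20 to 0.31, with genistein and -0.05, -0.31 to 0.21, with baicalein). It fell 1.58-fold with genistein 20 µM (log2 fold change -0.66 ± 0.12 SE, adjusted p = 0.00302) and 4.61-fold with baicalein 20 µM (-2.20 ± 0.13, adjusted p = 2.17e-08). Since these are bulk libraries, fewer cells with the transcript and less transcript per cell cannot be told apart. CCND1 shares 497 exonic bases with LTO1 on the opposite strand, and the kit does not mark strand, so reads from that stretch cannot be assigned to either gene. LTO1 had 341, 483 and 177 counts with baicalein 20 µM and 182, 188 and 184 in untreated LNCaP, where CCND1 had 458, 714 and 388 and 4409, 3523 and 3809.

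From the lower to the higher dose, CCND1 fell by 0.71 on the log2 scale from 10 to 20 µM of genistein (SE 0.12, adjusted p = 0.00226) and by 2.15 from 10 to 20 µM of baicalein (SE 0.13, adjusted p = 3.22e-08). The difference between those steps was 1.44 ± 0.17 (adjusted p = 5.54e-05), so the baicalein step was the steeper of the pair.

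CCND3 (ENSG00000112576, chromosome 6, 41934934 to 42050357, minus strand) encodes cyclin D3. Its libraries were spread within each group, with 33.5, 34.6 and 22.0 CPM in untreated LNCaP and 18.5, 31.9 and 29.3 CPM with baicalein 20 µM. All 5 LNCaP groups overlapped, and the fold change with baicalein 20 µM was -0.14 on the log2 scale with a 95% interval of -0.92 to 0.64. CCND2 (ENSG00000118971, chromosome 12, 4269771 to 4305353, plus strand), which encodes cyclin D2, had 1, 0 and 1 counts in untreated LNCaP, 2, 0 and 3 with baicalein 20 µM and 0, 3 and 2 in PC-3, at or under a floor of 3 counts, and no fold is given. With CCND1 down and CCND3 not called, the makeup of the D cyclins shifted. Per kb, CCND1 supplied 89.8 ± 2.16% of the summed CPM of the 3 D cyclins in untreated LNCaP, 85.4 ± 5.89% with genistein 20 µM and 67.7 ± 5.77% with baicalein 20 µM. Untreated libraries lay between 88.2 and 92.3% and those of baicalein 20 µM between 61.7 and 73.2%, with no overlap. The share of CCND3 was 10.2 ± 2.17% in untreated LNCaP and 32.1 ± 5.70% with baicalein 20 µM.

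The kinases themselves were not called with either drug. CDK4 (ENSG00000135446, chromosome 12, 57747727 to 57756013, minus strand) had 137, 168 and 170 CPM in untreated LNCaP, 175, 210 and 156 CPM with genistein 20 µM and 132, 181 and 166 CPM with baicalein 20 µM. The libraries overlapped in each case, and the 95% interval of the log2 fold change with baicalein 20 µM was -0.25 to 0.35. CDK4 shares 1369 exonic bases with TSPAN31 on the opposite strand, which had 75 to 449 counts per library where CDK4 had 1429 to 3412. CDK6 (ENSG00000105810, chromosome 7, 92604921 to 92836573, minus strand) was low in LNCaP, with 27 to 129 counts per library. Its 3 untreated libraries had 6.61, 3.92 and 3.79 CPM, so the first stood apart. With baicalein 20 µM it had 5.75, 2.97 and 2.76 CPM, and here again the first library was the high one. At 10 µM all 6 libraries of both drugs, at 2.63 to 3.71 CPM, lay below the 3 untreated ones, with log2 fold changes of -0.60 (interval -1.23 to 0.04) for genistein and -0.62 (-1.27 to 0.02) for baicalein, neither of them called. Without the first baicalein 20 µM library CDK6 was called lower at that dose (log2 fold change -0.71, adjusted p = 0.0434). Per kb, CDK6 made up 0.802 ± 0.373% of the CPM of CDK4 and CDK6 in untreated LNCaP and no more than 1.23% in any LNCaP library.

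The INK4 members CDKN2B and CDKN2C went in opposite directions with baicalein 20 µM. CDKN2C (ENSG00000123080, chromosome 1, 50960745 to 50974634, plus strand) had 15.1, 12.8 and 15.3 CPM in untreated LNCaP and 2.97, 4.98 and 2.35 CPM with baicalein 20 µM. The lowest of the 12 other LNCaP libraries had 10.8 CPM, so the 3 libraries stood apart from them all. CDKN2C fell 4.04-fold (log2 fold change -2.01 ± 0.20, adjusted p = 2.92e-06), on 23 to 62 counts per library. With genistein 20 µM it had 13.0, 13.7 and 12.0 CPM, and its log2 fold change was -0.10 with an interval of -0.50 to 0.30. From 10 to 20 µM of baicalein it fell by 1.84 on the log2 scale (SE 0.20, adjusted p = 7.82e-06), whereas the genistein step was 0.18 (interval -0.22 to 0.59). The difference between the steps was 2.02 ± 0.28 (adjusted p = 0.000158).

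CDKN2B (ENSG00000147883, chromosome 9, 22002903 to 22009305, minus strand), a gene known for its induction by TGF-beta, had 9.95, 5.88 and 5.57 CPM in untreated LNCaP. The 6 libraries at 10 µM had 3.99 to 8.38 CPM and overlapped the untreated ones. With baicalein 20 µM it had 26.7, 11.2 and 19.3 CPM, above every untreated library, and it rose 2.74-fold (log2 fold change 1.45 ± 0.38, adjusted p = 0.00557). With genistein 20 µM it had 12.6, 13.1 and 20.6 CPM, also above every untreated library, but its log2 fold change of 1.17 (interval 0.35 to 1.99) missed the threshold at an adjusted p of 0.0521. DESeq2 called it (adjusted p = 0.0326), as did the fits with only the compared groups, with a GC and length correction and without the first untreated library. From 10 to 20 µM CDKN2B rose with genistein (log2 fold change 1.46 ± 0.39, adjusted p = 0.0258) and with baicalein (1.54 ± 0.39, adjusted p = 0.00478). The call in the genistein step, though not its direction, was lost without genistein 10 µM replicate 2 (log2 fold change 1.31, adjusted p = 0.103) or 3 (1.36, adjusted p = 0.0989) or genistein 20 µM replicate 3 (1.18, adjusted p = 0.112). Per kb, CDKN2B made up 28.4 ± 6.08% of the CPM of CDKN2B and CDKN2C in untreated LNCaP, 48.8 ± 8.23% with genistein 20 µM and 79.9 ± 13.2% with baicalein 20 µM. Even the lowest of the last, at 64.7%, lay above the highest untreated one, at 35.0%.

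Of the CIP/KIP members CDKN1B and CDKN1C, only CDKN1B was called, with baicalein 20 µM, where 1 library lay far above the others. CDKN1A, a CIP/KIP gene outside the members, was called higher with each drug at 20 µM and is given below. CDKN1B (ENSG00000111276, chromosome 12, 12685498 to 12722369, plus strand) had 137, 96.7 and 87.9 CPM in untreated LNCaP and 293, 116 and 127 CPM with baicalein 20 µM. The first library of the latter was the high one, and the other 2 lay within the untreated range. The fit gave a log2 fold change of 0.78 ± 0.31 (adjusted p = 0.0469), and without that library the value was 0.21 (adjusted p = 0.405). The call also ended without untreated replicate 2 (0.68, adjusted p = 0.13) or 3 (0.62, adjusted p = 0.151), without the filter on low counts (0.69, adjusted p = 0.118), with only the compared groups (0.82, adjusted p = 0.15) and with the GC and length correction (0.75, adjusted p = 0.0589). Genistein 20 µM libraries had 97.1, 101 and 117 CPM, within the untreated range. At 10 µM the libraries had 86.3, 73.4 and 72.0 CPM for genistein, just below the untreated ones, and 140, 99.7 and 131 CPM for baicalein, and neither group was called. CDKN1C (ENSG00000129757, chromosome 11, 2883213 to 2885775, minus strand), an imprinted gene, had only 3 to 15 counts in each LNCaP library. It stood at 0.421 ± 0.223 CPM in untreated LNCaP, 0.793 ± 0.218 CPM with genistein 20 µM and 0.765 ± 0.106 CPM with baicalein 20 µM, and the libraries overlapped. Its log2 fold change with baicalein 20 µM, 0.85 (interval -0.14 to 1.85), was called only without untreated replicate 1 (1.37, adjusted p = 0.035).

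RB1 (ENSG00000139687, chromosome 13, 48303744 to 48599436, plus strand) was not called with either drug. Its untreated libraries had 77.9, 64.5 and 72.3 CPM. With baicalein 20 µM they had 76.1, 45.3 and 75.2 CPM, and with genistein 20 µM 85.5, 59.4 and 60.6 CPM, so both groups overlapped the controls. With baicalein 10 µM they had 49.7, 71.2 and 225.5 CPM, and the third library, with 2556 counts, was the highest of all 18. Without it the log2 fold change with baicalein 10 µM was -0.20, against 0.74 (interval -0.19 to 1.67) with all 3. LPAR6, which lies within an RB1 intron on the opposite strand, had 264 counts in that library and 273 in the second.

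**Figure D2:**
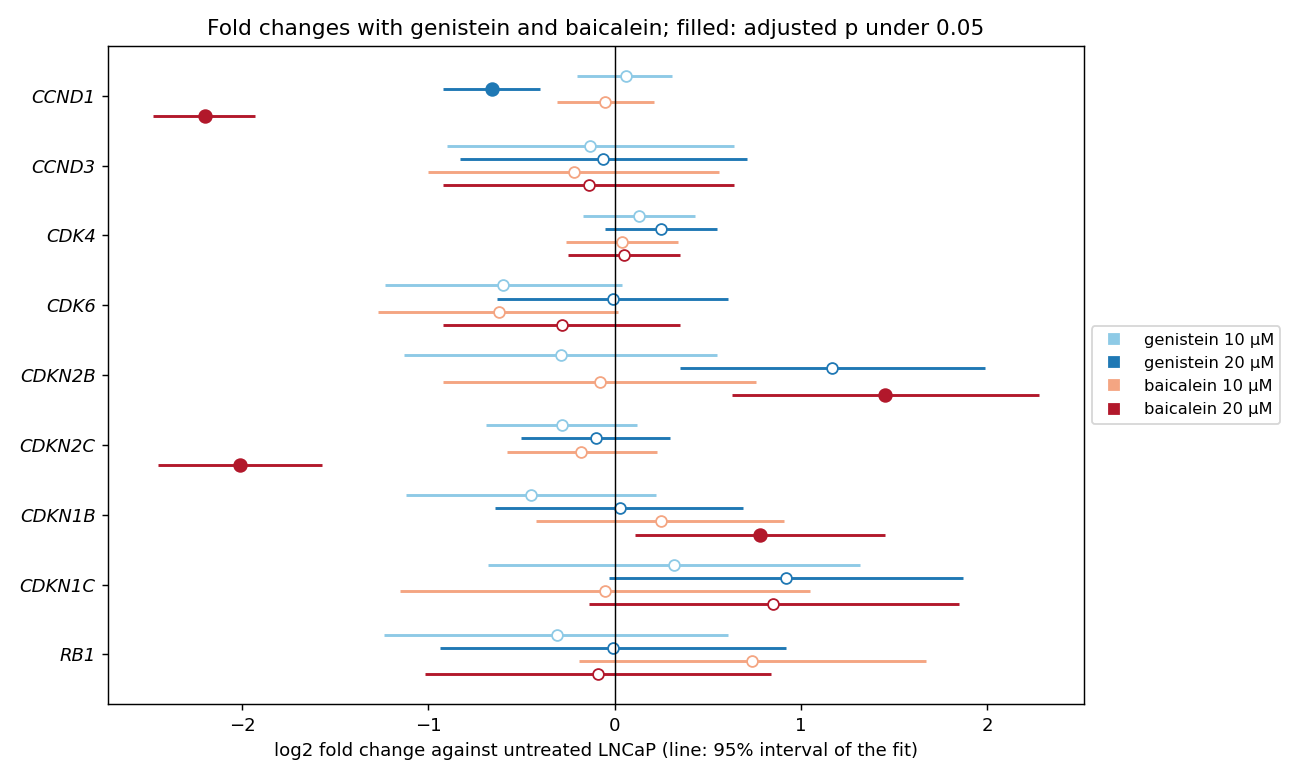
Log2 fold changes of the 9 tested genes against untreated LNCaP (horizontal axis), with lines for the 95% interval of the fit over 3 libraries per group. Filled points were called at an adjusted p under 0.05. CCND1 lies at -0.66 with genistein 20 µM and -2.20 with baicalein 20 µM, CDKN2C at -2.01 with baicalein 20 µM only, and CDKN2B at 1.17 (not called) and 1.45.

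Genistein and baicalein, which differ in the position of the phenyl ring and in their hydroxyl groups, were compared directly at each dose over the 9 members, which made 18 comparisons. At 10 µM no member was called between them, beside 0.00589% of all genes called higher with genistein and 0% called lower. The interval for CCND1 was -0.15 to 0.37, genistein minus baicalein, on the log2 scale. CDKN1B (-0.70, interval -1.37 to -0.02) and RB1 (-1.05, interval -1.99 to -0.11) were lower with genistein before adjustment, and both had an adjusted p of 0.638. At 20 µM 2 of the 9 were called, both higher with genistein, and none was called lower, beside 25.4% of all genes called higher and 23.3% called lower. CCND1 was 2.92-fold higher with genistein than with baicalein (log2 difference 1.55 ± 0.12, adjusted p = 7.81e-07). CDKN2C was 3.76-fold higher (1.91 ± 0.20, adjusted p = 8.67e-06). No difference was called in CDKN2B (-0.28, interval -1.08 to 0.52), CDK4 (0.20, -0.11 to 0.50), CCND3 (0.08, -0.70 to 0.86) or RB1 (0.08, -0.85 to 1.01). The interval for CDKN2B does not exclude a difference in either direction. CDKN1B was lower with genistein at -0.75 (adjusted p = 0.0618, not called). It was called with DESeq2 (adjusted p = 0.048), with relative log expression factors (adjusted p = 0.048) and with the GC and length correction (adjusted p = 0.0471). Leaving out baicalein 20 µM replicate 2 (adjusted p = 0.0174) or 3 (adjusted p = 0.0339) also gave a call. Without replicate 1 its difference was -0.18 (adjusted p = 0.499).

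Of the steps from 10 to 20 µM, the genistein step changed 2 members, 1 in each direction, beside 5.59% of all genes called higher and 7.63% lower. The baicalein step raised 1 and lowered 2, beside 26.8 and 27.5% of all genes. These comparisons share libraries with those against untreated LNCaP. RB1 was called lower in the baicalein step only without baicalein 10 µM replicate 1 (log2 fold change -1.19, adjusted p = 0.0205). Without replicate 3, the library with 225.5 CPM, its step was 0.11 (adjusted p = 0.725) and its difference between the steps 0.20, against 1.13 with all libraries. CDKN1B was called higher in the baicalein step only without baicalein 20 µM replicate 2 (0.77, adjusted p = 0.048). Without baicalein 10 µM replicate 1 RB1 was also called in the difference between the steps (adjusted p = 0.0431). The test of the difference with all libraries called CCND1 and CDKN2C, 2 of 9, both positive, beside 17.3% of all genes called positive and 15.5% called negative.

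The other genes of the pathway were 43, in 7 lists. At 10 µM none of them was called with either drug, beside 0.112% of all genes called with genistein and 0.4% with baicalein. Some had an unadjusted p under 0.05 in the edgeR test. With baicalein 10 µM 4 of the 12 RB-E2F targets and 3 of the 10 E2F factors and DP partners were lower on that measure. With genistein 10 µM 1 and 2 were lower, and in these lists none was higher. Of the 12 RB-E2F target genes of replication, 5 fell and none rose with genistein 20 µM (median log2 fold change -0.38, 0.05 over all genes), and the other 7 were not called. With baicalein 20 µM 10 fell and none rose (-1.18, 0.04 over all genes). The shares of all genes called lower in these comparisons were the 8.12 and 27.8% given above. MCM5, a subunit of the replicative helicase, fell by 0.62 ± 0.09 on the log2 scale with genistein 20 µM (adjusted p = 0.000709) and by 1.86 ± 0.10 with baicalein 20 µM (adjusted p = 9.53e-09). MCM2, another subunit, had 54.8, 73.0 and 74.0 CPM in untreated LNCaP and 8.71, 13.9 and 12.6 CPM with baicalein 20 µM, without overlap. MCM2 fell by 0.84 with genistein (adjusted p = 0.00583) and by 2.48 with baicalein (adjusted p = 2.07e-07). Between the drugs at 20 µM, 9 of the 12 targets were higher with genistein and none was lower. Over all genes, 25.4% were called higher and 23.3% lower in that comparison.

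Of 10 E2F factors and DP partners, 3 fell with genistein 20 µM and none rose, and with baicalein 20 µM 4 fell and 1 rose. Over all genes, 8.12% were called lower and 8.31% higher with genistein 20 µM, and 27.8 and 29.4% with baicalein 20 µM. E2F1, an activator, fell by 0.77 ± 0.14 with genistein 20 µM (adjusted p = 0.003) and by 1.42 ± 0.14 with baicalein 20 µM (adjusted p = 3.09e-06). E2F8, a repressor that is itself a target of E2F, fell by 1.27 ± 0.20 (adjusted p = 0.00121) and by 2.63 ± 0.23 (adjusted p = 8.97e-07). Among 5 genes of the next kinase step, cyclins E and A with CDK2, 2 fell with genistein 20 µM and 4 with baicalein 20 µM, and none rose. CCNE2, which encodes cyclin E2, fell by 1.24 with genistein (adjusted p = 0.0386) and by 1.62 with baicalein (adjusted p = 0.00265).

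Of 4 other CDK inhibitors and pocket proteins, CDKN2D and CDKN1A rose with each drug at 20 µM. The pocket proteins RBL1 and RBL2 were not called. Over all genes, 8.31% were called higher with genistein 20 µM and 29.4% with baicalein 20 µM. CDKN2D, the INK4 gene for p19, had 7.33, 7.84 and 6.95 CPM in untreated LNCaP, 12.7, 12.8 and 10.7 CPM with genistein 20 µM and 20.9, 28.3 and 24.9 CPM with baicalein 20 µM. The groups did not overlap, and its log2 fold changes were 0.76 ± 0.17 (adjusted p = 0.00779) and 1.78 ± 0.17 (adjusted p = 1.53e-06). CDKN1A, the CIP/KIP gene for p21, had 154, 165 and 171 CPM in untreated LNCaP, 155, 325 and 328 CPM with genistein 20 µM and 938, 1351 and 1054 CPM with baicalein 20 µM. Its first genistein library lay at the untreated level, and the baicalein libraries did not overlap the controls. CDKN1A rose by 0.78 ± 0.24 (adjusted p = 0.0392) and by 2.81 ± 0.25 (adjusted p = 1.02e-06). Both were lower with genistein than with baicalein at 20 µM, by 1.02 (adjusted p = 0.000218) for CDKN2D and 2.03 (adjusted p = 2.2e-05) for CDKN1A.

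The 3 genes of the CDK-activating kinase, which phosphorylates CDK4 and CDK6, were not called with genistein 20 µM, beside 8.31% of all genes called higher and 8.12% lower. Before adjustment all 3 were higher there at a p under 0.05 in the edgeR test (median log2 fold change 0.34, 0.05 over all genes). With baicalein 20 µM 2 of them rose, beside 29.4% of all genes called higher and 27.8% lower. CDK7, its catalytic subunit, rose by 1.40 ± 0.13 (adjusted p = 1.85e-06). Of 6 genes for the turnover of p27 and D cyclins, none was called with genistein 20 µM. With baicalein 20 µM 2 rose and 1 fell, beside the same shares of all genes. AMBRA1, which directs the ubiquitin ligase for D cyclins, rose by 0.72 ± 0.14 (adjusted p = 0.000775). SKP2, which does the same for p27, fell by 1.19 ± 0.31 (adjusted p = 0.00573). FOXO3, a factor that acts on CDKN1B, was the 1 of 3 FOXO genes called, at 0.36 ± 0.10 (adjusted p = 0.00943) with baicalein 20 µM, and with genistein 20 µM 0 of 3 were called.

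**Figure D3:**
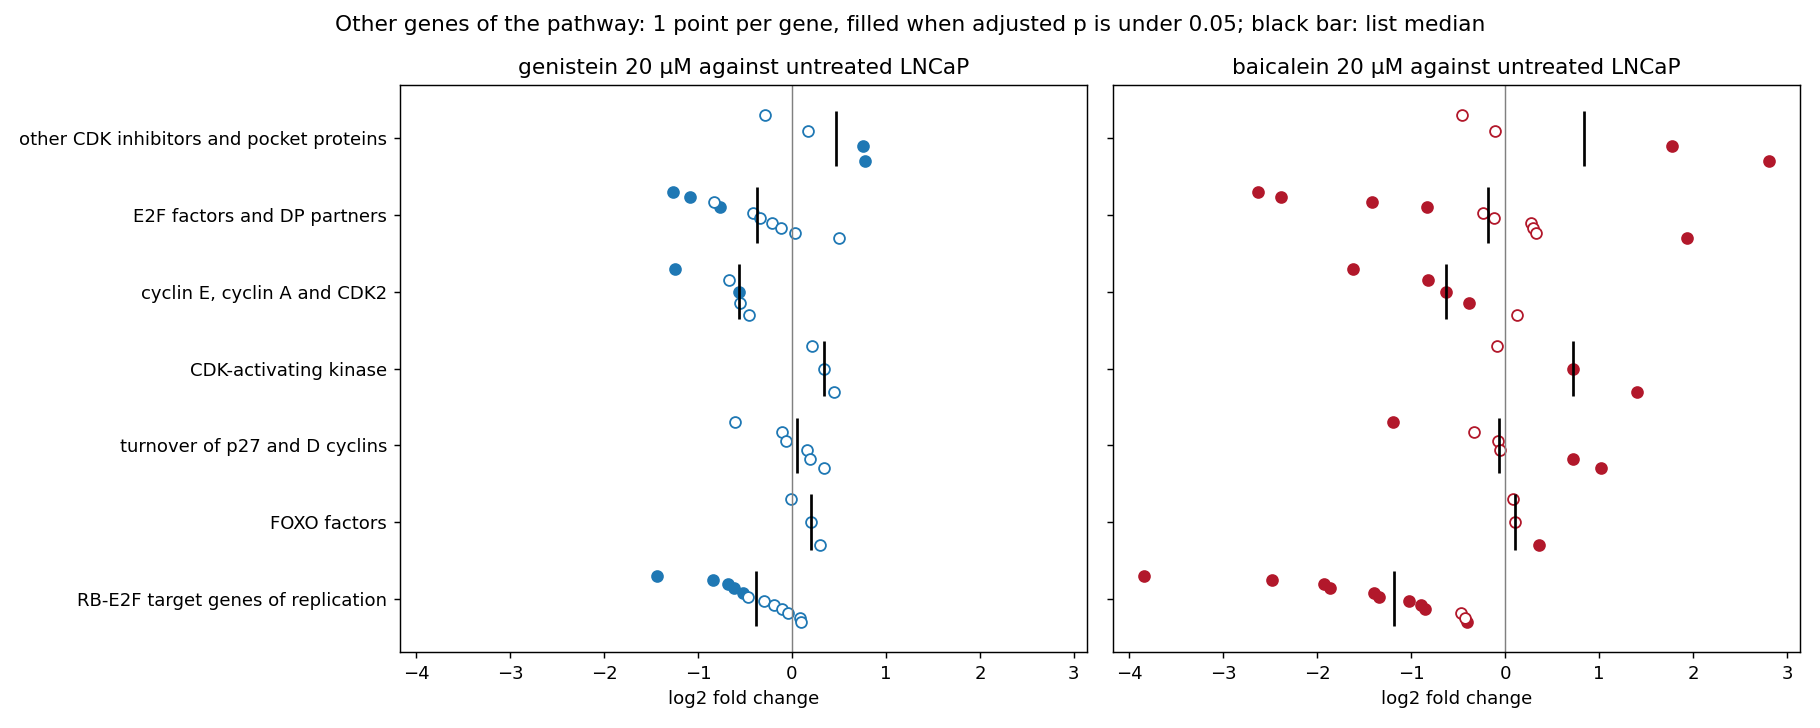
Log2 fold change (horizontal axis) of each of the 43 other genes of the pathway, by list, with genistein 20 µM (left) and baicalein 20 µM (right) against untreated LNCaP, 3 libraries per group. Points are genes, filled when called, and black bars are list medians. The median of the replication targets is -0.38 on the left and -1.18 on the right.

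PC-3 differed from LNCaP, both untreated, in 7 of the 9 tested members: 6 were higher and 1 lower, beside 37% of all genes called higher and 37.9% lower. CCND1 had 813, 836 and 839 CPM in PC-3, far above the LNCaP libraries, and was 3.72-fold higher (log2 fold change 1.89 ± 0.09, adjusted p = 2.72e-06). Per kb it supplied 97.3 ± 0.725% of the D cyclins there. CCND3 had 22.0, 25.2 and 37.2 CPM and overlapped LNCaP (log2 fold change -0.12, interval -0.72 to 0.49). CDK4 had 212, 272 and 228 CPM, above every untreated LNCaP library, and was 1.48-fold higher (0.56 ± 0.14, adjusted p = 0.00701). CDK6 had 36.3, 32.2 and 22.8 CPM and was 6.26-fold higher (2.65 ± 0.29, adjusted p = 0.000165). It was still the smaller of the kinases in PC-3, at 3.24 ± 0.887% of the CPM per kb of CDK4 and CDK6.

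Both INK4 members were higher in PC-3. CDKN2B had 154, 148 and 105 CPM and was 18.7-fold higher (log2 fold change 4.23 ± 0.30, adjusted p = 2.08e-05), and CDKN2C had 59.4, 58.2 and 63.1 CPM and was 4.12-fold higher (2.04 ± 0.11, adjusted p = 5.62e-06). The CIP/KIP members went in opposite directions. CDKN1C had 10.6, 12.4 and 13.0 CPM and was 27.1-fold higher (4.76 ± 0.33, adjusted p = 1.57e-05), from 13, 6 and 4 counts in LNCaP to 91, 156 and 115. CDKN1B had 48.1, 41.2 and 28.0 CPM, below every untreated LNCaP library, and was 2.77-fold lower (-1.47 ± 0.26, adjusted p = 0.00167). RB1 had 124, 40.6 and 56.4 CPM, and its first library lay above and the other 2 below the LNCaP libraries. With all 3 its log2 fold change was 0.03 (interval -0.93 to 0.98), and without PC-3 replicate 1 it was -0.56 (adjusted p = 0.0342). The order of levels per kb in PC-3 was led by CCND1 (172 ± 3.02 CPM per kb), CDK4 (74.9 ± 9.69), CDKN2B (33.5 ± 6.68) and CDKN2C (18.1 ± 0.765), each apart from its neighbours. CDKN1B (13.9 ± 3.63), RB1 (11.4 ± 6.88), CCND3 (4.85 ± 1.38) and CDKN1C (4.84 ± 0.515) followed, with overlap between neighbours, and CDK6 (2.48 ± 0.563) and CCND2 (0.0216 ± 0.0188) came last.

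**Figure D4:**
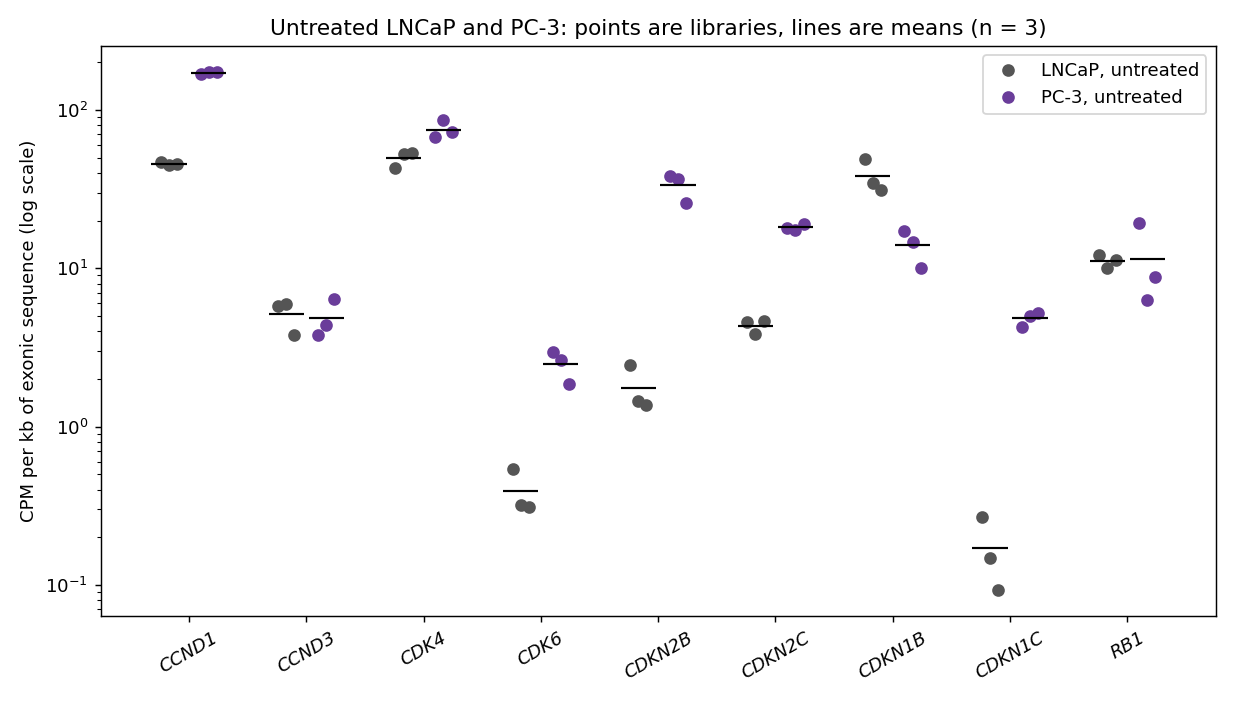
Level per kb of exonic sequence (CPM per kb, log scale) of the 9 tested genes in the 3 untreated LNCaP and 3 untreated PC-3 libraries. Points are libraries and lines are means. The lines do not overlap for CCND1, CDK4, CDK6, CDKN2B, CDKN2C and CDKN1C, higher in PC-3, or for CDKN1B, lower in PC-3, and they overlap for CCND3 and RB1.

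In the same lists, PC-3 differed from LNCaP in both directions, beside 37% of all genes called higher and 37.9% lower. Of the 12 replication targets 10 were higher and 1 lower (median log2 fold change 1.40, -0.02 over all genes), with TK1 and TYMS, enzymes of thymidine nucleotide supply, higher by 3.22 ± 0.12 (adjusted p = 1.44e-06) and 2.77 ± 0.10 (adjusted p = 1.32e-06). Among the 10 E2F factors and DP partners 5 were higher and 1 lower. Of 4 other inhibitors and pocket proteins 2 were higher and 2 lower, CDKN2D at 1.66 ± 0.12 (adjusted p = 2.34e-05) and CDKN1A at -1.36 ± 0.12 (adjusted p = 4.24e-05). In the cyclin E, cyclin A and CDK2 list 3 were higher and 1 lower, in the CDK-activating kinase 2 and 1, and in the turnover list 3 and 2. CKS1B, the partner of SKP2 in p27 recognition, was higher by 2.91 ± 0.13 (adjusted p = 2.39e-06). Of the 3 FOXO genes 2 were lower, FOXO3 at -1.64 ± 0.10 (adjusted p = 8.07e-06) and FOXO1 at -1.70 ± 0.18 (adjusted p = 0.000131).

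The genes whose log2 level followed each called member most closely over the 15 LNCaP libraries were sought among 10531 genes, as a description, since all points share the same libraries and the same dose groups. CCND1 was followed by CTPS1 (Pearson r = 0.996) and ARSG (0.992). CDKN2C was followed by ICMT (0.977), RLN1 (0.977) and TARS2 (0.974), and CDKN2B by BMP2K (0.969), HDGFL3 (0.963) and TRAK2 (0.961). For members that were not called the highest r was 0.801 for CCND3 (PDE10A), 0.792 for CDK4 (DENND6B), 0.827 for CDK6 (FLVCR1), 0.851 for CDKN1C (SYBU) and 0.80 for RB1 (WRN). The calls rest on the same libraries, so a lower r in these members adds nothing to them. For CDKN1B it was 0.877 (ZNF624).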

How the data were processed

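The deposited table holds whole-number counts per gene for 18 libraries, which per the submitters' processing notes were made on GRCh38 with tools that included STAR 2.7.6a, fastp and featureCounts 1.6.4; the notes also name DESeq2 1.20.0. Strand setting, annotation release and the handling of multimapping reads are not given in the sources used here, and per the labels' protocols the kit was NEBNext Ultra, which does not mark strand. Another 18 per-sample columns (FPKM) were not used. Count columns were assigned to samples by the cell line, drug, dose and replicate in their headers.

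Genes were tested with edgeR 4.0.16 in R 4.3.3 (quasi-likelihood F test, TMM factors, default low-count filter, robust estimation). All 15 LNCaP libraries entered 1 fit (16985 genes, 10 residual degrees of freedom), and the 6 untreated libraries another for PC-3 (17259 genes, 4 degrees). Adjustment was by Benjamini-Hochberg within each comparison. Standard errors divide the unshrunken log2 fold change by the root of F, and intervals place them around the reported, shrunken value. CPM use TMM factors over all 18 libraries. Lengths come from GENCODE 29, whose coordinates equal the deposited ones for 1 member, so levels per kb are approximate. No 2 libraries of a group agreed within sampling noise (chi-square per degree of freedom 12.01 to 97.59). Counting floors cover counting error only. The script was tested on simulated data.

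The members and lists were chosen with earlier results of these data known. All 10 members are named, of each list up to 3 called genes per main comparison with the smallest adjusted p, and for each member its most alike genes of at least 5 CPM by Pearson r of log2(CPM + 0.5). Some genes that these rules and lists take are not reported here. Alternatives were other scaling, DESeq2 1.42.0, no filter, no mitochondrial genes, only the compared groups, a replicate block, a GC and length correction and leaving out each library.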

Additional observations from a re-analysis of the deposited data

Results flagged for a closer look

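In CCND1 and CDKN2C the step from 10 to 20 µM differed between the drugs, by the test of the difference itself. For CCND1 the genistein step minus the baicalein step was 1.44 on the log2 scale (edgeR adjusted p = 5.54e-05). All 3 libraries at the higher dose of each drug lay below all 3 at its lower dose, and the fall was larger with baicalein. For CDKN2C the difference was 2.02 (adjusted p = 0.000158), with all 3 baicalein 20 µM libraries below all 3 baicalein 10 µM libraries and the genistein groups overlapping.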

How the results depend on the processing

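Over the 10 comparisons the 9 tested members gave 90 results, of which 21 were called. Of 285 refits of the called results under an alternative, 274 kept direction and call, 11 lost the call and 0 changed direction. Of 920 refits of the others, 15 gained a call in the same direction, 1 was called in the opposite direction and 101 changed sign without a call on either side. The reversed value was that of RB1 in PC-3, which ran from -0.56 to 0.33 on the log2 scale as libraries were left out (-0.56 without PC-3 replicate 1). The number of members called with genistein 20 µM was 2 instead of 1 with DESeq2, with only the groups compared and with the GC and length correction, and from 10 to 20 µM of genistein it was 1 instead of 2 without the filter on low counts; in each case CDKN2B made the difference, and the cause was not tested. With baicalein 20 µM it was 3 instead of 4, by the loss of CDKN1B, without the filter, without mitochondrial genes, with only the groups compared and with the GC and length correction. Between the drugs at 20 µM CDKN1B gained a call with relative log expression factors, with DESeq2 and with the GC and length correction. It also gained a call from 10 to 20 µM of genistein with only the groups compared (adjusted p = 0.0433). When each library was left out in turn, 1 to 2 members were called in each of these 2 genistein comparisons, 3 to 5 with baicalein 20 µM, 3 to 4 from 10 to 20 µM of baicalein, 2 to 3 between the drugs at 20 µM, 2 to 3 for the difference between the steps, 7 to 8 in PC-3 and 0 in the comparisons at 10 µM.

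With a replicate block 1, 4 and 7 members were called with genistein 20 µM, with baicalein 20 µM and in PC-3, as without it. Libraries with the same number did not deviate together in every comparison: their correlations ran from -0.56 to 0.37. For baicalein 20 µM and untreated LNCaP they were 0.37, 0.31 and 0.04. The numbers were not taken as pairs, since the signs were mixed and the labels do not say what they mark. The count over all genes moved by over 1.5 times at 10 µM: 19 genes with genistein became 129 with DESeq2, 57 with the GC and length correction and 11 with the block, and 68 with baicalein became 400, 241 and 29, and 9 with only the groups compared. Between the drugs at 10 µM 1 gene became 72 with DESeq2, 3 with the GC and length correction and 0 with the block or with only the groups compared, and from 10 to 20 µM of genistein 2246 became 3392 with the GC and length correction. With 1 library left out, 1661 to 1938 genes were called with genistein 20 µM instead of 2791, and 1201 to 1777 from 10 to 20 µM of genistein instead of 2246. DESeq2 called 45.0% of the changed genes higher with genistein 10 µM, instead of 31.6%, and the fit without mitochondrial genes 11.9% with baicalein 10 µM, instead of 22.1%. In PC-3 the median of all genes was -0.214 with DESeq2 and -0.291 without the filter, instead of -0.024. Depth limits CCND2 and CDKN1C in LNCaP, with at most 3 and 15 counts per library.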
